A study of Mus musculus with 24 samples.

Results

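The growth hormone axis of mouse liver was followed through 10 genes: the receptor genes Ghr and Prlr, the signal transducers Stat5a and Stat5b, the feedback inhibitors Socs2 and Cish, the secreted target Igf1, and the transcriptional regulators Bcl6, Cux2 and Tox. Their probes were taken by the gene name that the scanner files give, among probes that are not array controls. This gave 29 probes of 56605 on the array, and 28 of them were among the 32080 probes that passed the filter on dim signal. The remaining probe, A_52_P258211 of Tox, was well above background on none of the 24 arrays, with group means of 4.96 to 5.00 on the log2 scale.

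RNA from livers of C57BL/6J mice was measured on 24 single-colour Agilent arrays, 6 in each of 4 labelled groups: male pesticide, male control, female pesticide and female control. Per the labels the mice were bought at 8 weeks of age, acclimatised for 2 weeks, and given a diet with or without added pesticides for 52 weeks, with an age of 68 weeks at sampling. The series was set up to ask what a pesticide mixture in the diet does to the liver of each sex. The labels name no pesticide. They name no animal for a sample and do not say whether RNA was pooled, so p-values measure the spread between samples, part of which may be technical. In whole liver, fewer cells of a type and less RNA per cell cannot be told apart.

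The labels for sex went against the sex-linked transcripts, and this bears on every comparison below. Xist, the RNA of the inactive X chromosome in female cells, averaged 8.24 ± 0.11 in labelled male pesticide livers and 5.08 ± 0.10 in labelled male control livers (log2 intensity, SD, n = 6 each). In labelled female livers it averaged 8.21 ± 0.16 with pesticide and 5.12 ± 0.23 with control. With pesticide it was well above background on 12 of 12 arrays, with control on 0 of 12, and the Y-linked Eif2s3y, Ddx3y, Kdm5d and Uty showed the reverse, 0 of 12 and 12 of 12. On all 24 arrays the sex-linked transcripts followed the labelled diet, so a difference of diet and a difference of sex cannot be told apart. Groups are called by their labels throughout.

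Liver is the main target of pituitary growth hormone. The hormone binds its receptor, Ghr, which acts through the kinase JAK2 to phosphorylate STAT5 proteins, and these enter the nucleus and switch on genes such as Igf1, the endocrine growth factor, and Socs2 and Cish, whose products damp the same pathway. In rodents the pituitary releases growth hormone in separated pulses in males and more evenly in females. Much of the sex difference of rodent liver follows from that pattern, with Bcl6 known as a repressor that is more abundant in male liver and competes with STAT5 for DNA sites, and Cux2 known as a female-specific repressor of male-biased genes. Prlr, the prolactin receptor, and Tox, a nuclear protein of the high mobility group, are known for higher levels in female rodent liver.

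STAT5 binds the palindrome TTCNNNGAA, which reads the same on both strands, so the promoter windows of the members were searched for it. The RefSeq windows run from 250 bases before to 50 bases after a start, 300 bases in all, on GRCm38.p6, and 8 of the 10 genes matched with 15 windows. The motif stood in 4 of the 15, of Cish, Bcl6 and Prlr. It stands in 8.3% of the 32851 windows of all genes, at least 2 copies in 0.457% and at least 3 in 0.0335%. The Cish window holds 2 copies within 20 bases of the start, and a Bcl6 window holds 3. These are printed because Cish and Bcl6 gave the largest negative correlation among the member pairs compared below, and Prlr as the other member with the motif, with the motifs in capitals and each sequence 5′ to 3′ on the gene's strand.
Cish, chr9:107296409-107296708, plus strand: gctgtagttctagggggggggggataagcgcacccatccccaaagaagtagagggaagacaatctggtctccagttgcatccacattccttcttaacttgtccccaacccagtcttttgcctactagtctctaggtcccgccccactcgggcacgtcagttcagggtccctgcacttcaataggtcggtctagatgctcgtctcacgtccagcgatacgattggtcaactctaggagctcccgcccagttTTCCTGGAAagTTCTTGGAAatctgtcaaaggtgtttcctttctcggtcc
Bcl6, chr16:23981234-23981533, minus strand: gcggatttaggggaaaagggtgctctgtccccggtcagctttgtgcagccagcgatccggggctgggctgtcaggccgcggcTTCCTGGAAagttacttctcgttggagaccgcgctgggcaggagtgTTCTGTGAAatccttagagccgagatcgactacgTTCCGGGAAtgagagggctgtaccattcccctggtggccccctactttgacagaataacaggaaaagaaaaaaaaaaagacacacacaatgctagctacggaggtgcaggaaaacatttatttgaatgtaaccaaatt
Prlr, chr15:10223656-10223955, plus strand: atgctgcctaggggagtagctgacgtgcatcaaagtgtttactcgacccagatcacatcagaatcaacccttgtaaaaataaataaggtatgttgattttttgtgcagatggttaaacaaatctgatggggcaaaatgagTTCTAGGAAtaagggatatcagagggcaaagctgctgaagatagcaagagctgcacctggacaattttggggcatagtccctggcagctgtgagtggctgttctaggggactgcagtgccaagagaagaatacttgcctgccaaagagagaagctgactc
The second Bcl6 window, at chr16:23988803-23989102, holds 1 copy, TTCTCAGAA. The windows of Ghr (2), Stat5a (2), Stat5b (2), Igf1 (1), Cux2 (2) and the other 2 of Prlr hold no match to these letters. A match is a run of letters and not a measured binding site.

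A further set of 3 array probes is shown because they show what the array reads of the receptors and of a feedback gene: the Ghr probe A_52_P680941, whose 2 ends lie either side of an intron, the Prlr probe A_52_P458279, which lies upstream of the other 2 Prlr probes, and the Socs2 probe A_55_P1992838, which repeats the brightest Socs2 probe. Their positions are on mm9, chr15:3283509-3290961 (minus strand, across an intron), chr15:10255629-10255688 (plus strand) and chr10:94875468-94875527 (minus strand), and each has 60 bases.
Ghr A_52_P680941: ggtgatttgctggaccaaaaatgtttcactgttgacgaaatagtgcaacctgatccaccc
Prlr A_52_P458279: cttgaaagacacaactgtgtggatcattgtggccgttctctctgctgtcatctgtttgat
Socs2 A_55_P1992838: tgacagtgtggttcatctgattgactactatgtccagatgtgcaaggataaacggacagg

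Of the 28 tested member probes, 10 were higher and 0 lower in labelled male pesticide than in labelled male control livers, by limma with a Benjamini-Hochberg adjusted p under 0.05. Over all tested probes 22.2% passed in that comparison, 11.6% higher and 10.7% lower. In labelled females 8 of the 28 were higher and 0 lower, beside 18.3% of all probes passing, 8.88% higher and 9.44% lower. The counts over the 28 are a description, since 6 of them, the 3 Cux2 probes, A_55_P2072586 of Socs2 and A_52_P561073 and A_55_P2718954 of Tox, passed the filter through labelled pesticide groups alone and could hardly have been called lower. Of the 22 member probes well above background on all 24 arrays, 6 were higher in labelled males and 5 in labelled females, beside 23.4% and 19.9% of all such probes passing in either direction. The median log2 difference of the 28 was 0.14 in labelled males and 0.31 in labelled females, beside -0.03 and -0.02 over all tested probes. The probes that passed belonged to 3 genes with all or several of their probes, Prlr, Cux2 and Tox, and in labelled males to Socs2 as well. Taken by its brightest probe, each of Prlr, Cux2 and Tox passed in both labelled sexes, and the other 7 genes in neither.

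**Figure D1:**
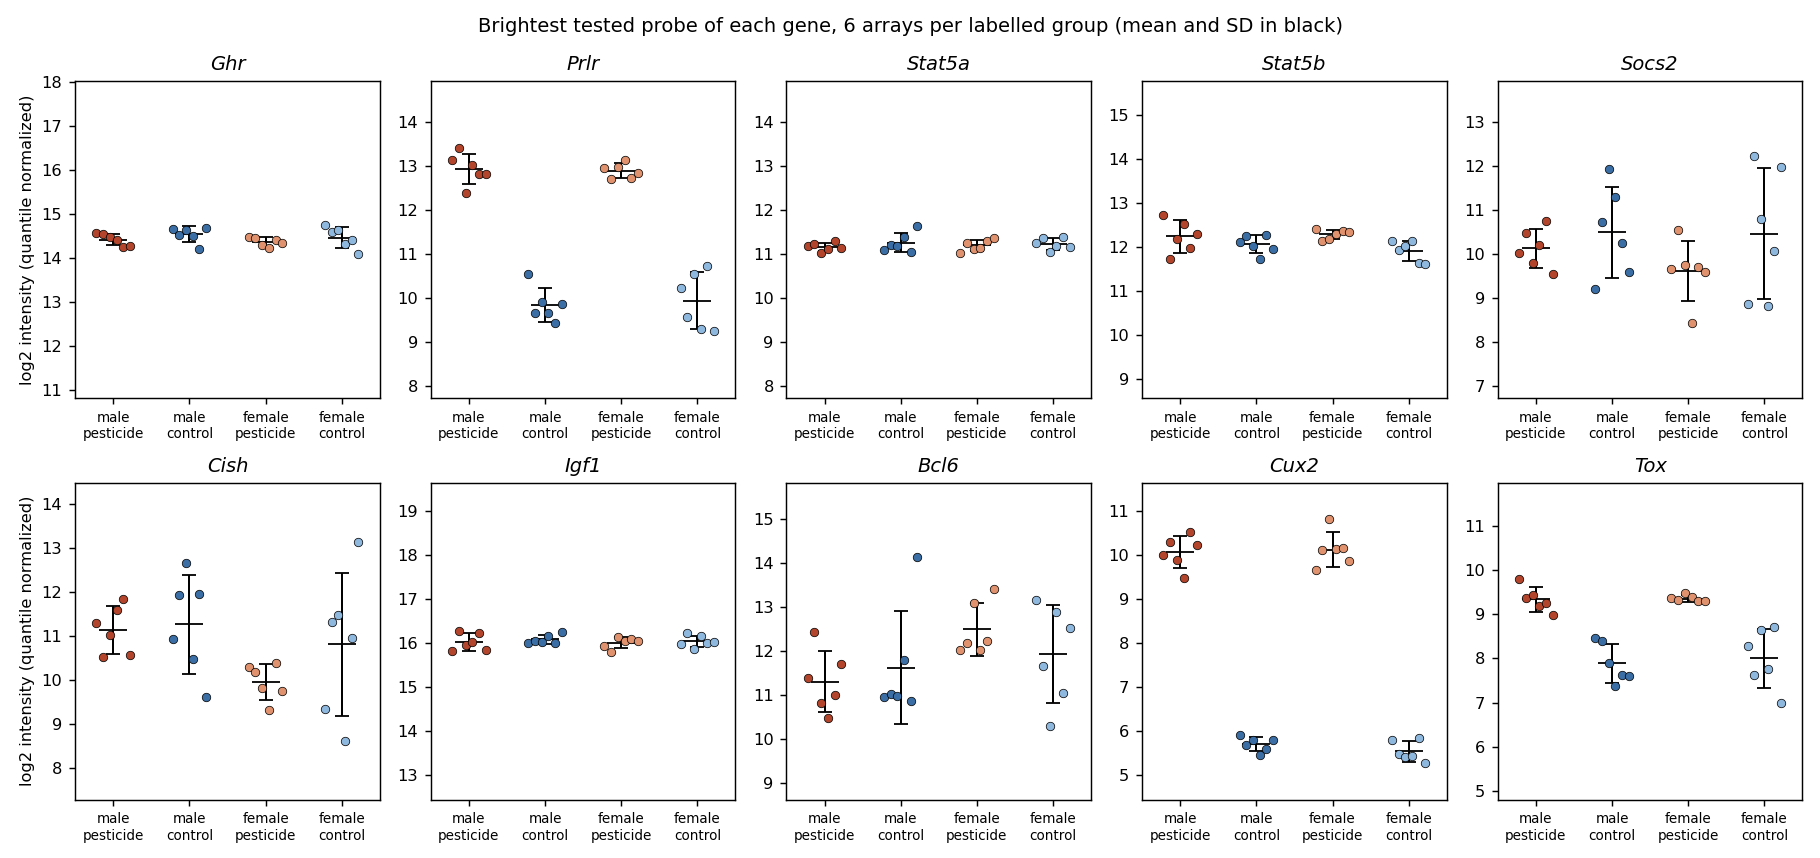
Log2 intensity (vertical axis, quantile normalized) of the brightest tested probe of each of the 10 genes on every array, with the 4 labelled groups along the horizontal axis; points are arrays, and black bars are the mean and SD of 6. Every panel spans the same number of log2 units, so the separation of Prlr, Cux2 and Tox by labelled diet and the wide scatter of Socs2, Cish and Bcl6 can be read on 1 scale.

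**Figure D2:**
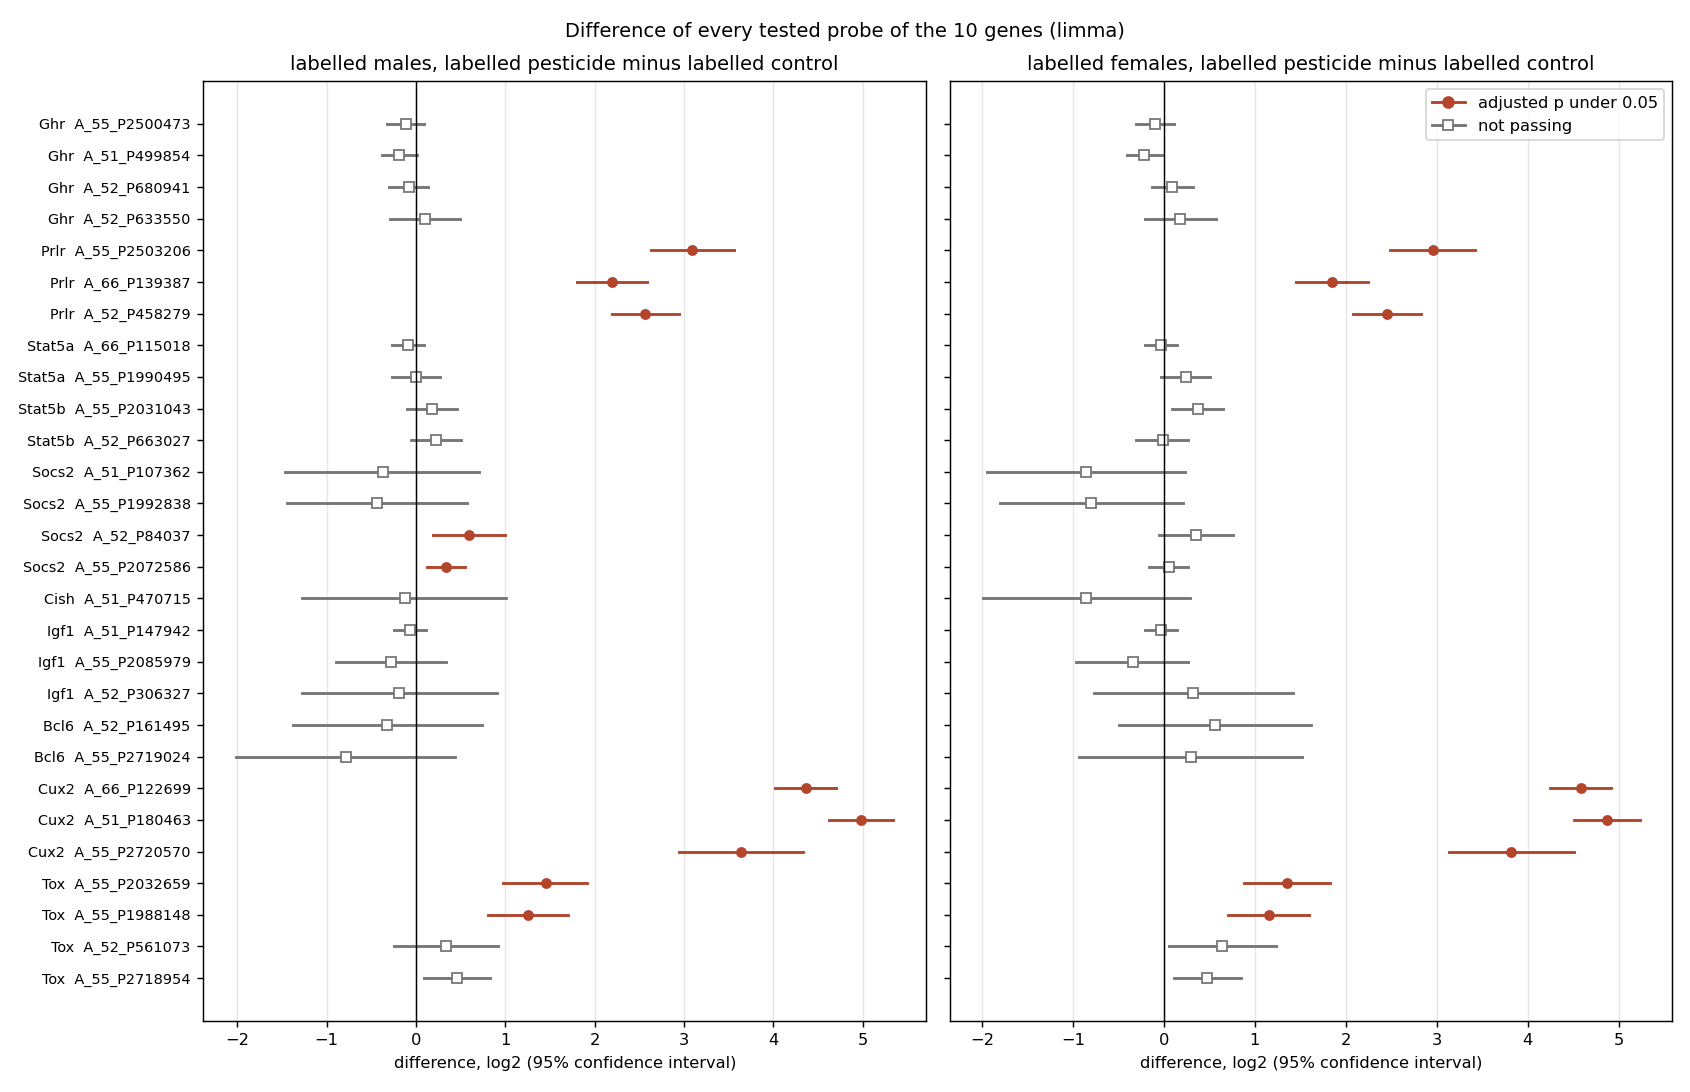
Log2 difference of labelled pesticide minus labelled control (horizontal axis) with its 95% confidence interval for the 28 tested probes, in labelled males on the left and labelled females on the right; filled red circles passed an adjusted p of 0.05 in limma and open grey squares did not. The Prlr and Cux2 intervals start at 1.45 or above in both panels. Those of Ghr, Stat5a and the brightest Igf1 probe lie between -0.40 and 0.57.

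The receptor for growth hormone showed no difference by labelled diet that passed. Its brightest probe, A_55_P2500473, annotated to the transcript of the short, secreted binding protein, read from 14.26 to 14.57 (median 14.44) in labelled male pesticide livers and from 14.20 to 14.69 (median 14.59) in labelled male control livers. Labelled female livers read from 14.24 to 14.48 (median 14.38) with pesticide and from 14.09 to 14.76 (median 14.50) with control. The groups overlapped throughout, and the log2 differences were -0.12 in labelled males (95% interval -0.32 to 0.09, adjusted p = 0.437, limma) and -0.09 in labelled females (-0.30 to 0.11, adjusted p = 0.564, limma).

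The full-length receptor transcript, read by A_51_P499854, averaged 13.67 ± 0.17 with pesticide and 13.85 ± 0.12 with control in livers labelled male, with 13.62 ± 0.12 with pesticide and 13.83 ± 0.21 with control in livers labelled female (SD, n = 6 each). Its differences, -0.19 (adjusted p = 0.157, limma) and -0.21 (adjusted p = 0.109, limma), did not pass. The Ghr probe printed above gave -0.08 and 0.10, and A_52_P633550, annotated to a further Ghr transcript, gave 0.10 and 0.18. Across the 4 Ghr probes the differences ran from -0.21 to 0.18, and their 95% intervals from -0.40 to 0.57.

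Prlr was higher in the labelled pesticide livers with every probe. This receptor binds prolactin and signals through the same kinase and STAT5 proteins. Its brightest probe, A_55_P2503206, annotated to transcript variant 2, read from 12.40 to 13.40 (median 12.93) in labelled male pesticide livers, against 9.44 to 10.54 (median 9.77) in labelled male controls. In labelled females it read from 12.72 to 13.14 (median 12.91) with pesticide, against 9.26 to 10.73 (median 9.91) with control. No array of a labelled pesticide group came within the range of a labelled control group. The differences were 3.09 ± 0.22 log2 units in labelled males, 8.52-fold, and 2.96 ± 0.22 in labelled females, 7.76-fold (SE; adjusted p = 3.13e-10 and 8.62e-10, limma).

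The other Prlr probes moved the same way by smaller amounts. The probe for transcript variant 1, A_66_P139387, differed by 2.19 ± 0.19 in labelled males and by 1.84 ± 0.19 in labelled females (SE). The probe A_52_P458279 printed above differed by 2.56 ± 0.18 and 2.45 ± 0.18. For both, the labelled pesticide and labelled control arrays did not overlap, and the adjusted p was at most 2.07e-07 (limma). Within the slides, of which each held 2 arrays of each group, the difference of the brightest Prlr probe was 3.17, 2.93 and 3.17 in labelled males and 2.94, 3.13 and 2.80 in labelled females.

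The signal transducers showed little difference. The brightest Stat5a probe, A_66_P115018, averaged 11.16 ± 0.09 with pesticide and 11.25 ± 0.22 with control in livers labelled male, and 11.19 ± 0.12 with pesticide and 11.22 ± 0.13 with control in livers labelled female (SD, n = 6 each). Its differences of -0.09 and -0.03, and those of the second probe, A_55_P1990495, of -0.0021 and 0.24, did not pass. Stat5b, the form that dominates in liver, read from 12.15 to 12.42 (median 12.31) in labelled female pesticide livers, against 11.62 to 12.13 (median 11.99) in labelled female controls, with probe A_55_P2031043. These 2 groups did not overlap, yet the difference of 0.37 ± 0.14 (SE) missed the threshold (adjusted p = 0.0575, limma).

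In labelled males the same Stat5b probe read from 11.72 to 12.73 (median 12.25) with pesticide and from 11.74 to 12.28 (median 12.08) with control, a difference of 0.18 ± 0.14 (SE; adjusted p = 0.379, limma). The Stat5b call in labelled females turned on single libraries: without labelled female control 1 or 4 the adjusted p was 0.0476 or 0.0407, and without labelled male pesticide 1 or 2, which act only through the shared spread, 0.0369 or 0.0332 (limma). The difference between the labelled sexes in this effect was part of the interaction test below and did not pass. A second Stat5b probe, A_52_P663027, annotated to a clone cDNA, gave 0.22 and -0.01, neither passing.

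Socs2, a suppressor of cytokine signalling that is induced by STAT5 and restrains the growth hormone receptor, varied more between arrays of a group than between groups. Its brightest probe, A_51_P107362, read from 9.54 to 10.75 (median 10.12) in labelled male pesticide livers and from 9.21 to 11.95 (median 10.49) in labelled male controls. Labelled female livers read from 8.43 to 10.55 (median 9.68) with pesticide and from 8.82 to 12.24 (median 10.44) with control. All 4 groups overlapped. The differences of -0.37 ± 0.53 and -0.85 ± 0.53 (SE) did not pass (adjusted p = 0.659 and 0.278, limma).

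The probe A_55_P1992838 printed above followed A_51_P107362 closely, with r = 0.979 over the 12 labelled pesticide arrays and 0.993 over the 12 labelled control arrays, and gave -0.44 and -0.80, not passing. A pair of further probes carry the name Socs2 but lie near positions 94850747 and 94848005 of chromosome 10 (mm9), downstream of the main transcript's probes at 94875066 and 94875468. The first, A_52_P84037, averaged 7.19 ± 0.19 with pesticide and 6.59 ± 0.46 with control in livers labelled male (SD, n = 6 each), higher by 0.59 ± 0.20 (SE; adjusted p = 0.0309, limma), with overlapping groups. The second, A_55_P2072586, was well above background on 5 of 6 labelled male pesticide arrays and 0 of 6 labelled male control arrays, at least 1.22-fold higher (adjusted p = 0.023, limma), and it passed the filter through the labelled male pesticide group alone. In labelled females their differences of 0.35 and 0.06 did not pass. Array by array A_52_P84037 still followed A_51_P107362, with r = 0.551 over labelled pesticide and 0.939 over labelled control arrays.

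Cish, the founding member of the same inhibitor family, had 1 probe, A_51_P470715, and a scatter like that of Socs2. It read from 10.51 to 11.83 (median 11.15) in labelled male pesticide livers and from 9.61 to 12.65 (median 11.42) in labelled male controls. In labelled females it read from 9.31 to 10.37 (median 9.99) with pesticide and from 8.61 to 13.13 (median 11.13) with control. The labelled female control group alone covered the range of the other 3. The differences of -0.13 ± 0.55 and -0.85 ± 0.55 (SE) did not pass (adjusted p = 0.902 and 0.304, limma).

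Igf1 gave 3 probes that did not all behave alike. The brightest, A_51_P147942, annotated to transcript variant 1, was almost level: from 15.81 to 16.28 (median 15.99) with pesticide and from 16.01 to 16.26 (median 16.04) with control in livers labelled male. Labelled female livers read from 15.80 to 16.15 (median 16.05) with pesticide and from 15.87 to 16.22 (median 16.00) with control. Its differences were -0.06 (95% interval -0.24 to 0.11) and -0.03 (-0.21 to 0.14), neither passing (adjusted p = 0.646 and 0.839, limma).

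The second Igf1 probe, A_55_P2085979, annotated to variant 2, averaged 11.16 ± 0.51 with pesticide and 11.44 ± 0.72 with control in livers labelled male, and 10.57 ± 0.18 with pesticide and 10.91 ± 0.65 with control in livers labelled female (SD, n = 6 each). The third, A_52_P306327, annotated to a clone cDNA at position 87325382 of chromosome 10 (mm9), averaged 10.56 ± 0.83 and 10.75 ± 1.15, and 9.53 ± 0.57 and 9.21 ± 1.29, in the same order of groups. None of their differences by labelled diet passed. A_55_P2085979 and A_52_P306327 correlated with each other (r = 0.704 over labelled pesticide and 0.873 over labelled control arrays), while A_51_P147942 and A_55_P2085979 did not (r = -0.02 and -0.436).

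Bcl6, the repressor that shares DNA sites with STAT5, also scattered widely. Its brightest probe, A_52_P161495, read from 10.47 to 12.42 (median 11.19) in labelled male pesticide livers and from 10.85 to 14.13 (median 11.00) in labelled male controls. In labelled females it read from 12.01 to 13.40 (median 12.20) with pesticide and from 10.30 to 13.14 (median 12.09) with control. The groups overlapped within each labelled sex, and the differences of -0.32 ± 0.51 and 0.57 ± 0.51 (SE) did not pass (adjusted p = 0.701 and 0.482, limma). The second probe, A_55_P2719024, gave -0.78 and 0.30, not passing, and followed the first with r = 0.868 over labelled pesticide and 0.838 over labelled control arrays.

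Cux2, the repressor known from female liver, had the largest differences of the 10 genes with each of its 3 probes. Its brightest, A_66_P122699, read from 9.47 to 10.52 (median 10.12) in labelled male pesticide livers, against 5.45 to 5.90 (median 5.73) in labelled male controls. Labelled female livers read from 9.65 to 10.81 (median 10.11) with pesticide, against 5.26 to 5.84 (median 5.45) with control. The labelled control arrays were close to background, with the probe well above it on 2 of 6 labelled male and 1 of 6 labelled female control arrays. The differences were 4.36 ± 0.17 log2 units in labelled males and 4.58 ± 0.17 in labelled females (SE; adjusted p = 3.75e-16 and 1.5e-16, limma).

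The probe A_51_P180463 was well above background on no labelled control array, so only a bound can be given. A bound sets the bright group's mean against, per array, the higher of the dim probe's own signal and the lowest signal of any probe well above it. By that measure it was at least 28.0-fold higher in labelled male pesticide livers and at least 25.7-fold higher in labelled female pesticide livers (adjusted p = 6.91e-17 and 1.27e-16, limma). The third probe, A_55_P2720570, was well above background on 1 of 6 labelled male and 0 of 6 labelled female control arrays. It was higher by 3.63 ± 0.34 in labelled males (SE) and at least 12.6-fold in labelled females (adjusted p = 2.24e-08 and 1.17e-08, limma). The 1 labelled male control array above background was replicate 2, which read 7.65, above the 4.90 to 5.28 of the other 5 arrays of its group, and on the other Cux2 probes the same array read 5.68 and 5.19. Within the 3 slides the difference of the brightest probe was 4.35, 4.05 and 4.68 in labelled males and 4.24, 5.05 and 4.45 in labelled females.

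Tox passed with 2 of its 4 tested probes. The brightest, A_55_P2032659, read from 8.98 to 9.80 (median 9.33) in labelled male pesticide livers, against 7.38 to 8.46 (median 7.75) in labelled male controls. In labelled females it read from 9.30 to 9.48 (median 9.35) with pesticide, against 6.99 to 8.73 (median 8.02) with control. The groups did not overlap, and the differences were 1.45 ± 0.23 and 1.35 ± 0.23 (SE; adjusted p = 7.29e-05 and 0.000201, limma), or 2.73-fold and 2.55-fold. The probe A_55_P1988148 gave 1.26 ± 0.22 and 1.15 ± 0.22 (SE), also passing. The dimmer probes A_52_P561073 (0.34 and 0.65) and A_55_P2718954 (0.46 and 0.48) did not pass (adjusted p from 0.0645 to 0.432, limma), although the groups did not overlap for the first in labelled females and for the second in labelled males. Within slides the brightest probe differed by 1.17 to 1.68 in labelled males and by 1.22 to 1.44 in labelled females.

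The difference between the labelled sexes in the response to the labelled diet was tested as an interaction. By limma, 0 of the 28 member probes passed, with 0 at an unadjusted p under 0.05 (smallest 0.0723), beside 0% of all probes passing and 1265 of 32080 at an unadjusted p under 0.05. Labelled male against labelled female livers gave 0 of 28 passing within the labelled pesticide diet, with 4 at an unadjusted p under 0.05, and 0 of 28 within the labelled control diet, with 1. Over all probes 0% passed in each. At an unadjusted p under 0.05 were 1311 of 32080 probes within the labelled pesticide diet and 1792 within the labelled control diet. Of the 5 sex chromosome transcripts, 0 passed between the labelled sexes in either labelled diet. These comparisons therefore do not set livers with Xist against livers with Y-linked transcripts, and 0 of 28 does not speak to a sex difference.

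The 4 in the labelled pesticide diet were both Bcl6 probes, Cish and a Stat5a probe. Bcl6 averaged 11.30 ± 0.70 in livers labelled male and 12.48 ± 0.60 in livers labelled female (SD, n = 6 each) with A_52_P161495, a difference of -1.19 ± 0.51 (SE), and -1.40 ± 0.59 with A_55_P2719024. Cish averaged 11.13 ± 0.54 and 9.95 ± 0.40 in the same groups, a difference of 1.18 ± 0.55 (SE). Its 6 labelled male pesticide arrays lay above all 6 labelled female pesticide arrays, but the adjusted p of each of these was 1 (limma). In the labelled control diet the Igf1 clone probe A_52_P306327 differed by 1.54 ± 0.53 (SE; adjusted p = 0.572, limma), and labelled female control 6 read 11.83 there, against 8.55 to 8.86 on the other 5 arrays of its group.

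Spread between arrays was itself a feature of the axis. The SD within the 4 labelled groups was 1.04 for Cish, 0.991 for Socs2 and 0.965 for Bcl6 with their brightest probes, larger than for 99.9%, 99.8% and 99.8% of the tested probes, whose median was 0.183. Among probes within 0.5 log2 units of the same mean level it was larger than for 99.7% for each of the 3. The Igf1 clone probe (1.00) and the second Bcl6 probe (1.12) were as wide. The SD was 0.142 for the brightest Igf1 probe, 0.149 for that of Stat5a and 0.172 for that of Ghr, below the median of all probes. Among probes of their own level it was larger than for 50.3%, 42.9% and 62.9%, so these 3 were not narrow for their level, and the widest Ghr and Stat5a probes had 0.349 and 0.235.

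**Figure D3:**
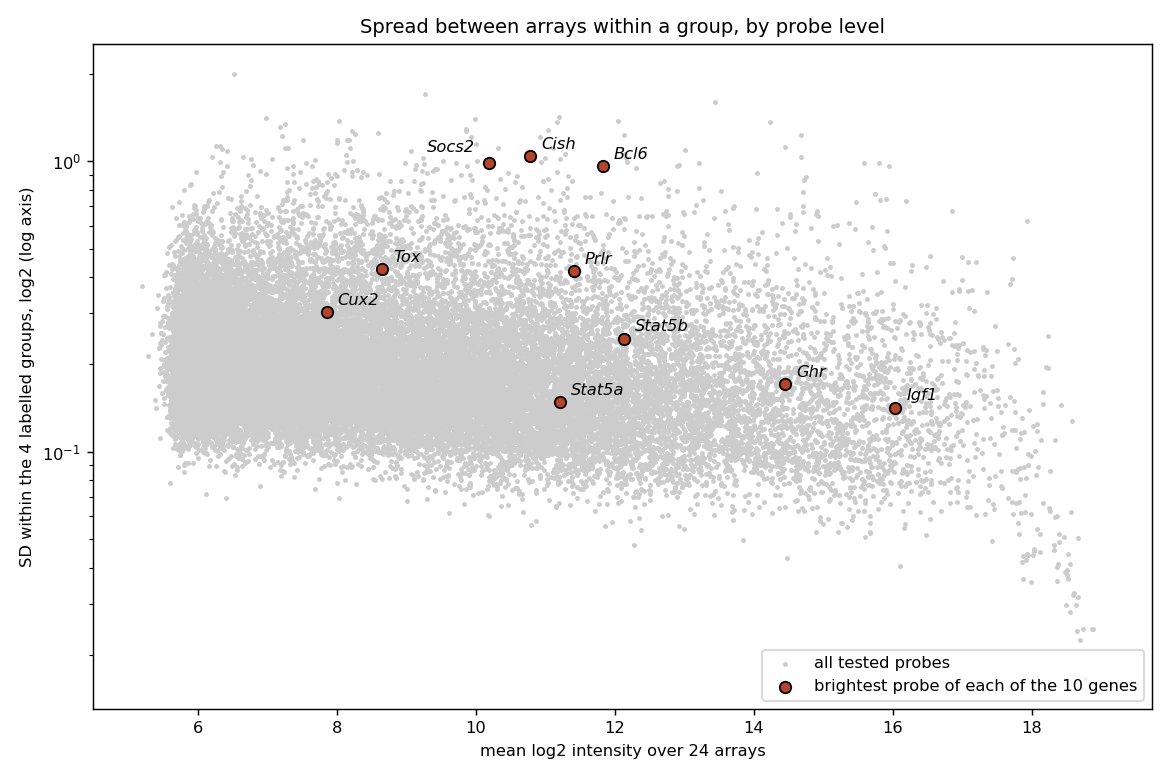
SD of log2 intensity within the 4 labelled groups (vertical log axis) against the mean log2 intensity over 24 arrays (horizontal axis) for all tested probes in grey, with the brightest probe of each of the 10 genes in red. Cish, Socs2 and Bcl6 lie near 1, at the upper edge of the cloud, and Stat5a, Ghr and Igf1 below 0.2.

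The spread was compared between the labelled diets by the absolute deviation of each array from its group's median, a comparison chosen after the values were seen. The mean deviation of Socs2 was 0.365 over labelled pesticide and 1.018 over labelled control arrays, and that of Cish was 0.381 and 1.046. For Tox the values were 0.126 and 0.449 with its brightest probe. Cux2 went the other way, with 0.263 and 0.148 for its brightest probe and 0.328 and 0.097 for A_51_P180463, near background on the labelled control arrays. The unadjusted p was 0.00266 for Socs2, 0.00864 for Cish, 0.000918 for Tox, and 0.155 and 0.00514 for the Cux2 probes, but none passed over all probes (adjusted p = 0.631, 0.759, 0.542, 0.928 and 0.744, limma), where 0.00624% of probes passed, 0.00312% with a larger and 0.00312% with a smaller spread in labelled pesticide livers.

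Array by array, 15 pairs of members were correlated within each labelled diet, 12 arrays each and 30 relations in all, each gene by its brightest probe. The 12 arrays join both labelled sexes, so a difference between those groups enters r unless deviations from group means are used. A pair passed when the Benjamini-Hochberg adjusted permutation p was under 0.05 for both Pearson's r and Spearman's rho. By this rule 0 of 30 passed, with 6 at an unadjusted p of r under 0.05 and 3 under it for both measures. The relations that came nearest joined Cish to Socs2 and to Bcl6.

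Cish and Socs2 had positive correlations that did not pass: r was 0.672 and rho 0.587 over labelled pesticide arrays (permutation p = 0.0142 and 0.0489, adjusted 0.142 and 0.402), and r was 0.77 and rho 0.727 over labelled control arrays (permutation p = 0.00405 and 0.00992, adjusted 0.0607 and 0.149). Without the 2 arrays farthest from the median of Socs2, labelled female pesticide 4 and labelled male pesticide 5, r over labelled pesticide arrays was 0.276. Leaving out the farthest arrays narrows the range of Socs2, which by itself can lower r. With 1 array left out at a time, r over labelled pesticide arrays ran from 0.513 to 0.782. Over labelled control arrays r was 0.787 without labelled female control 2 and 4. As deviations from slide means r was 0.715 and 0.803, and as deviations from the means of the labelled groups 0.592 and 0.779.

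Cish and Bcl6 had negative correlations that did not pass over all 12 arrays of a labelled diet with the brightest probes. Over labelled pesticide arrays r was -0.805 and rho -0.755 (permutation p = 0.00212 and 0.00615, adjusted 0.0607 and 0.149), and -0.734 without the 2 arrays farthest from the median of Bcl6. Over labelled control arrays r was -0.59 and rho -0.573 (permutation p = 0.0436 and 0.0554, adjusted 0.237 and 0.402). Without labelled male control 6 and labelled female control 1, the 2 farthest from the median of Bcl6, r was -0.36. Leaving these out narrows the range of Bcl6, which by itself can weaken r. With 1 array left out at a time, r over labelled control arrays ran from -0.811 to -0.519. Bcl6 and Cish differed in opposite directions between the labelled sexes within the labelled pesticide diet. As deviations from the means of the labelled groups, r was -0.561 and rho -0.434 over labelled pesticide arrays (within-group permutation p = 0.0792 and 0.193). Over labelled control arrays they were -0.581 and -0.538 (within-group permutation p = 0.0573 and 0.0955). As deviations from slide means r was -0.866 and -0.676. On values not taken as deviations, the rule was met in labelled pesticide livers once labelled female pesticide 4 was left out (r = -0.909, rho = -0.873, adjusted permutation p = 0.0066 and 0.0288). The 4 panels of the scatter plot show these arrays.

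**Figure D4:**
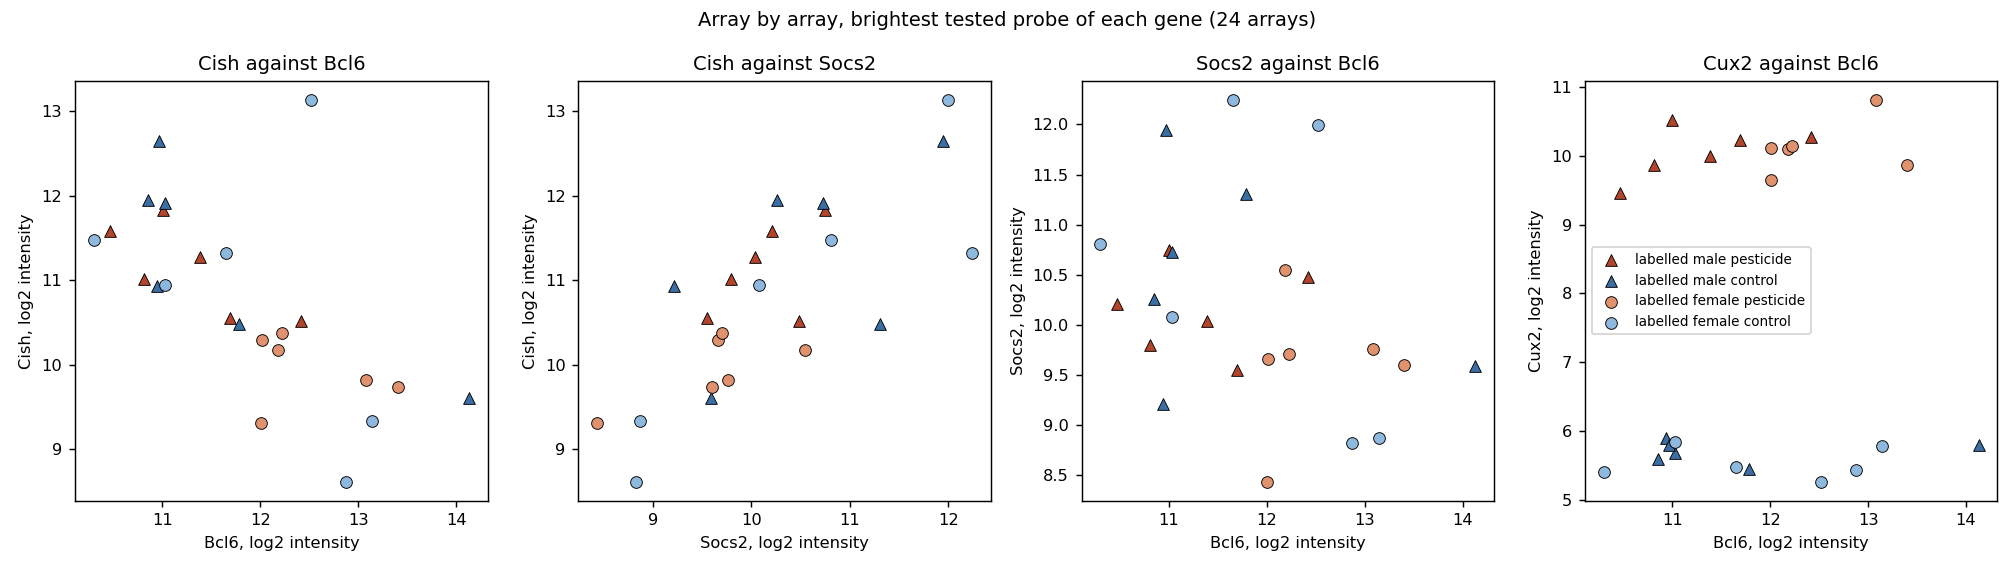
Log2 intensity of Cish against Bcl6, Cish against Socs2, Socs2 against Bcl6 and Cux2 against Bcl6, 1 point an array (24), red for labelled pesticide and blue for labelled control, triangles for labelled males and circles for labelled females. Most arrays with high Bcl6 have low Cish, and labelled female control 6, at 13.13 for Cish and 12.52 for Bcl6, lies off that run, while Cux2 separates the labelled diets whatever the level of Bcl6.

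Ghr, by its brightest probe, showed no relation that passed with the feedback genes. That probe, A_55_P2500473, is annotated to the transcript of the secreted binding protein. Over labelled pesticide arrays it had r = 0.585 with A_51_P499854, the full-length probe, and -0.417 with A_52_P680941, which is annotated to the same transcript. Over labelled control arrays these values were 0.502 and 0.819. With each gene's second brightest probe, A_51_P499854 for Ghr, its relations with Socs2 and Cish did not pass either. Ghr and Socs2 gave r = 0.415 and rho = 0.343 over labelled pesticide arrays (permutation p = 0.182 and 0.276) and -0.219 and -0.266 over labelled control arrays (permutation p = 0.493 and 0.405). Ghr and Cish gave 0.261 and 0.224 (permutation p = 0.408 and 0.485), and -0.351 and -0.385 (permutation p = 0.264 and 0.22), in the same order. Bcl6 and Cux2, the 2 repressors, gave 0.382 and 0.308 (permutation p = 0.223 and 0.334), and -0.012 and -0.042 (permutation p = 0.969 and 0.902). Ghr and Cux2 gave -0.412 and -0.364 (permutation p = 0.185 and 0.247), and over labelled control arrays, where Cux2 was near background, 0.587 and 0.552 (permutation p = 0.0474 and 0.067, adjusted 0.237 and 0.402). Prlr and Cish gave -0.127 and -0.07 (permutation p = 0.7 and 0.836), and -0.118 and -0.203 (permutation p = 0.711 and 0.53).

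Igf1 gave different results by probe. Its brightest probe and Cish had r = 0.01 over labelled pesticide and -0.409 over labelled control arrays, neither passing. With each gene's second brightest probe, an alternative chosen after the values were seen, Igf1 (variant 2) and Cish, which has 1 probe, had r = 0.788 and rho = 0.825 over labelled pesticide arrays (adjusted permutation p = 0.0273 and 0.0188), and r = 0.884 and rho = 0.895 over labelled control arrays (adjusted permutation p = 0.0048 and 0.0039). Without the 2 arrays farthest from the median of Cish, r was 0.859 and 0.807. By the same probes Bcl6 and Igf1 had r = -0.732 and rho = -0.79 over labelled pesticide arrays (adjusted permutation p = 0.0349 and 0.0266) and -0.599 and -0.762 over labelled control arrays (adjusted permutation p = 0.146 and 0.0318), and Bcl6 and Cish had r = -0.762 and rho = -0.846 over labelled pesticide arrays (adjusted permutation p = 0.0349 and 0.0129). That relation, Igf1 with Cish in both labelled diets and Bcl6 with Igf1 over labelled pesticide arrays were the 4 of 30 that met the rule. These relations were not tested as deviations from the means of the labelled groups, so a difference between the labelled sexes enters them. Labelled male minus labelled female pesticide livers gave 1.18 for Cish, -1.40 for this Bcl6 probe and 0.58 for this Igf1 probe, none passing. In labelled control livers the differences were 0.45, -0.32 and 0.52, none passing.

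**Figure D5:**
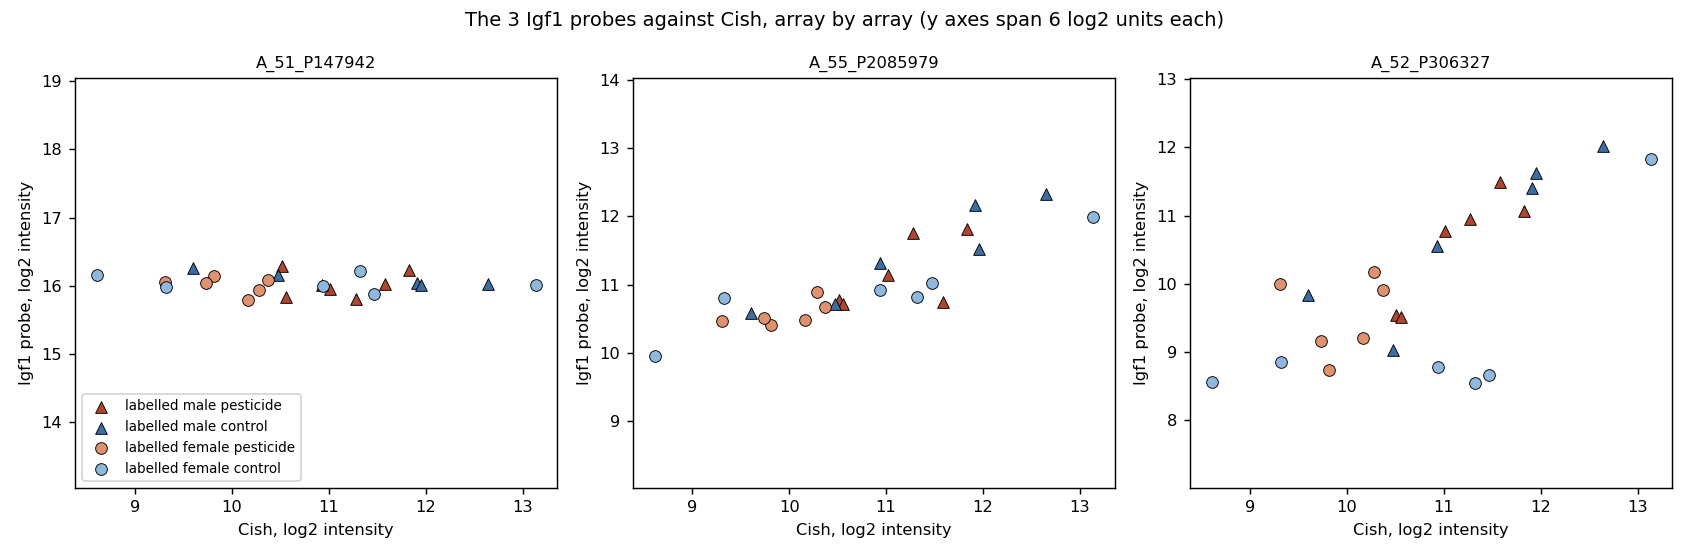
Log2 intensity of the 3 Igf1 probes (vertical axes, each spanning 6 log2 units) against Cish (horizontal axis) on the 24 arrays, coloured by labelled group. The brightest probe, A_51_P147942, stays between 15.80 and 16.28, while A_55_P2085979 ranges from 9.95 to 12.33 and tends to be higher where Cish is higher.

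The genes whose deviations from the group means were most like those of a member over the 24 arrays are given as a description, with Pearson's r. For Cish they were Rgs3, a regulator of G protein signalling (0.905), Foxq1 (0.855), Egfros (0.841), Foxa2, a liver forkhead factor (0.822), and Arid5b (0.815). For Socs2 they were Onecut1, a hepatocyte transcription factor (0.865), Pfkfb3, a regulator of glycolysis (0.799), Tgm1 (0.788) and Ikzf4 (0.782). For Bcl6 they were Mdga2 (0.81), Zbtb20, a zinc finger repressor of liver (0.809), Chd3 (0.743), Pramel20 (0.741) and Nfix (0.734). For Cux2 they were Map2k3 (0.833), Tbxa2r (0.771), Borcs5 (0.763), Ehmt1 (0.751) and Rapgef1 (0.745).

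Beyond the 10 genes, counts over 3 lists of related genes are given beside the 22.2% and 18.3% of all tested probes that passed in labelled males and labelled females. Of 29 tested genes of growth hormone receptor signalling, 3 were higher and 2 lower in labelled male pesticide livers, and 3 higher and 1 lower in labelled female pesticide livers, with a median difference of 0.10 and 0.09 log2 units. Socs7, another suppressor of cytokine signalling, fell by 0.53 on the log2 scale in labelled males and by 0.40 in labelled females (adjusted p = 0.00142 and 0.013, limma). Ptpn6, a phosphatase that dampens cytokine receptors and is abundant in blood cells, was higher by 0.47 and 0.45 (adjusted p = 0.0276 and 0.0394, limma). In labelled males Src (0.27) and the adaptor Sh2b2 (0.60) were also higher and Socs4 (-0.31) lower, and in labelled females Ptpn2 (0.17) and Grb2 (0.17) were higher. Without labelled female pesticide 3 the list held 1 higher and 1 lower gene in labelled females.

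Of 14 tested genes around IGF1, 4 were higher with pesticide in livers labelled male and 3 in livers labelled female, and 0 lower by limma, with a median difference of 0.09 and 0.19. Igfbp3, the main carrier of circulating IGF1, averaged 12.36 ± 0.27 with pesticide and 11.62 ± 0.29 with control in livers labelled male, and 12.36 ± 0.25 with pesticide and 11.86 ± 0.25 with control in livers labelled female (SD, n = 6 each). It was higher by 0.74 and 0.50 (adjusted p = 0.000826 and 0.0194, limma). Igfals, which completes the circulating complex, was higher by 0.47 and 0.42 (adjusted p = 0.0164 and 0.0338, limma). Igfbp7 (0.66) and Pappa (0.32) passed in labelled males and Igf2bp2 (0.47) in labelled females. Without labelled female control 4, or without labelled female pesticide 3, 2 genes were higher in labelled females.

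Of 25 other transcription factors and regulators reported in liver sex bias, 6 were higher and 5 lower in labelled male pesticide livers and 4 higher and 3 lower in labelled female pesticide livers, with a median difference of -0.13 and -0.055. Esr1, the oestrogen receptor, was higher by 1.11 and 1.15 (adjusted p = 4.76e-06 and 3.57e-06, limma), and Nr1i3, a xenobiotic receptor, by 0.75 and 0.75 (adjusted p = 0.000161 and 0.00021, limma). Cux1, the relative of Cux2, fell by 0.41 on the log2 scale in labelled males and by 0.37 in labelled females (adjusted p = 0.00184 and 0.00456, limma), opposite in direction to Cux2. Ihh, a signalling ligand, fell by 1.46 and by 1.06 (adjusted p = 0.00138 and 0.0171, limma). Zbtb20 fell by 0.57 in labelled males (adjusted p = 0.000185, limma), and its difference in labelled females was -0.27 (adjusted p = 0.0542, limma). Without labelled female control 4 the list held 3 higher and 5 lower genes in labelled females.

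Markers of some other liver cells moved with the labelled diet, with most of those of Kupffer and endothelial cells higher in both labelled sexes. Some stellate, T and NK cell and neutrophil markers were also higher in both. Over all tested probes 11.6% were higher with pesticide in labelled males and 8.88% in labelled females. By limma, 10 of 11 markers of Kupffer cells and macrophages were higher in the labelled pesticide livers of each labelled sex, as were 8 and 9 of 10 sinusoidal endothelial, 8 and 4 of 10 stellate, 3 and 1 of 9 T and NK cell, 4 and 0 of 7 B and plasma cell and 3 and 4 of 7 neutrophil markers in labelled males and labelled females. Of 9 hepatocyte markers 0 and 1 were higher and 0 lower. Without labelled female control 4 the T and NK cell counts were 7 and 7 of 9. The mean log2 intensity of the Kupffer list ran from 11.31 to 12.13 in labelled male pesticide and from 9.97 to 11.65 in labelled male control livers. In livers labelled female it ran from 10.88 to 12.50 with pesticide and from 9.79 to 12.01 with control. The mean log2 intensity of the endothelial list ran from 10.88 to 11.47, from 10.29 to 10.89, from 10.93 to 11.37 and from 10.28 to 10.84 in the same order of groups. That of the hepatocyte list stayed between 17.27 and 17.40 on all arrays. The part of these cells in the differences of Prlr, Cux2 and Tox was not tested.

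Each array had 29936 to 39032 probes well above background and a median signal of 63 to 109, and 0 spots were saturated. Along the first principal component, with 46.2% of the variance, the labelled diets lay apart. Labelled female control 4 stood apart on the second component (-53.11) and had the lowest median correlation with its group (0.9856), and labelled female pesticide 3 had the most probes above background. Without either array in turn, 10 member probes were higher in labelled males and 9 in labelled females. Over all probes 23.3% and 20.3% passed without labelled female control 4, and 22.6% and 15.8% without labelled female pesticide 3.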

How the data were processed

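Liver RNA was hybridised to 24 Agilent SurePrint G3 Mouse GE v2 arrays, 6 for each of 4 labelled groups, on 3 slides with 2 arrays of each group on each. The deposited scanner files hold the intensity of each spot, extracted with Feature Extraction 10.10.1.1 per the file headers, with probe positions on mm9. The deposited value table holds log2 values, quantile normalized across arrays per the labels' series text, and was used as an alternative. Per that text the median signal was filtered, transformed and tested with limma, and the same was done here. The log2 median signal was taken, spots marked as non-uniform outliers were left out, spots of a probe were averaged, and 56605 probes were quantile normalized. Probes well above background on at least 4 of 6 arrays of a group were tested, 32080 in all, with limma 3.58.1 in R 4.3.3 on 4 group means, and p-values were adjusted by the Benjamini-Hochberg method over all tested probes at 0.05. A gene's brightest probe is its tested probe with the highest mean over the 24 arrays.

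Correlations were taken with Python 3.11.15 and numpy 2.4.6 over the 12 arrays of a labelled diet, with 100000 permutations. Promoter windows are RefSeq's on GRCm38.p6. Every member probe was described, and of each gene list up to 4 passing genes with the smallest p per comparison of labelled diets were named, and for 4 members the 5 genes most like them in pattern; 2 genes that these rules select are not reported here. The members and lists were chosen with earlier results of these data known. The scripts were tested on simulated data. The number of arrays limits the precision. Replicate numbers were not taken to pair the arrays, since in none of the pairs of groups compared did every same-numbered pair of arrays correlate above 0.1 in its deviations from the group means (range -0.118 to 0.337). Alternatives were the background correction, scaling, filter, block, array weights, single slides, single arrays left out, and, chosen after seeing the data, the second brightest probe, the spread test and the lists without 2 arrays that stood apart.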

Additional observations from a re-analysis of the deposited data

Results flagged for a closer look

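Among the 28 tested probes, 112 groups of 6 arrays were examined for 1 array far from the rest, where the gap to its nearest neighbour was, as a share of the group's range, above Dixon's 95% critical value. This occurred in 9 groups, and chance alone gives about 1 in 20. All values are log2 intensities.

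Bcl6 probe A_52_P161495 read 14.13 on labelled male control 6, beside 10.85 to 11.78 on the other 5 arrays of the group. On the same array the Tox probe A_52_P561073 read 7.91, beside 5.15 to 5.90. Labelled female control 6 was high for the Igf1 clone probe A_52_P306327, at 11.83 beside 8.55 to 8.86, and low for the Stat5b clone probe A_52_P663027, at 6.70 beside 7.24 to 7.49. That array also had the highest Cish value of all 24, 13.13. For Cux2, labelled male control 2 read 7.65 with A_55_P2720570, beside 4.90 to 5.28, and labelled male control 3 read 5.44 with A_51_P180463, beside 5.06 to 5.20 and below the level that counts as well above background. The Ghr probe A_52_P680941 read 12.96 on labelled male pesticide 4, beside 12.58 to 12.71. Tox probe A_55_P1988148 read 8.74 on labelled male pesticide 1, beside 7.91 to 8.19, and Tox probe A_55_P2718954 read 7.09 on labelled female pesticide 5, beside 5.56 to 6.13. What set these arrays apart was not tested.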

How the results depend on the processing

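The calls of Prlr, Cux2 and Tox by their brightest probes held under every alternative run, except where Tox was tested on slide 2 alone in labelled females (1.22, adjusted p = 0.146, limma) and on slide 3 alone in labelled males and labelled females (1.51 and 1.44, adjusted p = 0.207 and 0.215, limma), where each group has 2 arrays, and except that the brightest Cux2 probe is not in the set of probes well above background on all 24 arrays. With that set 22 member probes were tested, and 6 were higher in labelled males and 5 in labelled females, beside 23.4% and 19.9% of all such probes passing. Slides 1, 2 and 3 alone gave 6 each in labelled males, beside 3.28%, 1.82% and 1.43% of all probes, and slide 2 alone gave 5 in labelled females, beside 0.994%. Leaving out 1 array at a time gave 8 to 11 member probes in labelled males, 8 to 9 in labelled females, 0 to 0 for the interaction and for each comparison of labelled sexes, and 0 to 1 member pairs for the correlations, where the 1 came without labelled female pesticide 4. Over all probes those fits without 1 array gave 18.5% to 23.3% passing in labelled males and 14.9% to 20.3% in labelled females. With each gene's second brightest probe 4 pairs passed, on values not taken as deviations from group means. No called value changed sign. Stat5b in labelled females also passed when only the arrays compared were fitted (adjusted p = 0.0281, limma) and with array weights (adjusted p = 0.0421, limma). Under the scalings tried, the median difference of all probes lay farthest from 0 at -0.08 log2 units.

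With the replicate number as a block, 11 member probes were higher in labelled males and 9 in labelled females, and 0 passed in the interaction and in each comparison of labelled sexes by limma. Over all probes the replicate block gave 8099 and 6751 calls, beside 7131 and 5878 without it. Same-numbered labelled male pesticide and labelled female pesticide arrays correlated between 0.066 and 0.305 (median 0.2), all above 0, and the other pairs of groups compared had values on both sides of 0. The numbers also follow the slides.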
